A study of Gallus gallus with 6 samples.

Results

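The genes described here were higher in chicken neural tube cells expressing MEK1ca than in control cells, and stayed at a similar level when HOXB8 was expressed together with MEK1ca. They numbered 72 of the 17108 genes in the count table. They were chosen on CPM (the count of a gene per 1000000 counts of its library), averaged over the 2 libraries of each condition. A member had a mean of at least 5 CPM in MEK1ca. Its level was at least 1.8-fold above the control in both MEK1ca and MEK1ca + HOXB8, and its ratio of MEK1ca + HOXB8 to MEK1ca lay from 0.67 to below 1.5, with 0.5 CPM added to each mean. In addition, all 4 libraries with MEK1ca had to lie above both control libraries, as they did for 15.6% of the 13582 genes tested. The rule used all 6 libraries and all 3 pairs of conditions, so the levels and ratios of the members are given as a description and carry no test.

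RNA-Seq had been performed on GFP-positive cells sorted from the trunk neural tube of chicken embryos 18 h after bilateral in ovo electroporation at stage HH11 by the labels, or HH12 by the study's scheme of the experiment. Each of the 6 libraries came from a pool of 18 to 20 embryos, with 2 libraries per condition. In the control condition, pCIG, the empty vector that drives GFP was used at 2 µg/µl. In MEK1ca, the vector carrying a constitutively active form of the kinase MEK1 was used at 1 µg/µl together with 1 µg/µl of empty pCIG. In MEK1ca + HOXB8, the vectors carrying MEK1ca and the transcription factor HOXB8 were used at 1 µg/µl each, so that the total DNA was the same in all conditions and all sorted cells carried a GFP vector. The transgenes were expressed from plasmids in whichever cells had taken them up. A condition with HOXB8 alone belongs to the study but is not analysed here, so the level of the members under HOXB8 without MEK1ca is not given. The pCIG and MEK1ca libraries are labelled as reanalysed from earlier work and the MEK1ca + HOXB8 libraries are not. A difference between those rounds of work and the addition of HOXB8 therefore cannot be told apart.

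MEK1 phosphorylates and activates the kinase ERK, which enters the nucleus and changes transcription. The first genes to respond, the immediate early genes, often encode transcription factors and are switched on without new protein synthesis, and other ERK targets encode phosphatases and adaptor proteins that dampen the pathway. In the neural tube, ERK signalling downstream of FGF keeps caudal progenitors immature. HOX proteins are homeodomain transcription factors that give cells their position along the body axis, and HOXB8 is a member of the trunk group. A gene raised by MEK1ca may thus respond directly or later in the cascade, and the counts do not separate these cases.

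The total counts per library ranged from 63637195 to 90460770, and 14054 to 14693 genes had at least 1 count. The members together took a small part of these totals, and their lowest count in any library was 81, so that counting noise was small for all 72. In bulk samples such as these, a change in the number of cells of a type and a change in RNA per cell cannot be told apart. The identifiers of the count table were not paired with gene symbols in the tables used here, so members are given by their position in the galGal4 assembly, no gene name is attached, and neither the transgenes nor markers of neural tube or other cells were checked. The second MEK1ca library stood apart, in that 99.4% of its genes with a count between 1 and 10 had an even one, whereas this share was 51.8% to 57.0% elsewhere. Among the members, 86.1% of the counts in that library were even, against 41.7% to 51.4% elsewhere. The number of members and some of the counts of flanking genes called are also given without that library.

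Summed over the 72 members, the level was 1272 and 1169 CPM in the pCIG libraries, 3449.7 and 3092 CPM in the MEK1ca libraries, and 3104 and 3069 CPM in the MEK1ca + HOXB8 libraries. The 4 libraries with MEK1ca lay close to each other, and far above the controls, with or without HOXB8. The choice of the members largely fixes this, so nothing is read from it. The median over the members was 7.30 CPM in pCIG, 20.8 CPM in MEK1ca and 18.6 CPM in MEK1ca + HOXB8. The group covered a wide range of abundance. In MEK1ca, 16 members had a mean under 10 CPM, 36 had 10 to 50 CPM, 9 had 50 to 100 CPM and 11 had 100 CPM or more. The members came from the low to middle range of the control, since their median of 7.30 CPM in pCIG compared with 49.5 CPM for all 9307 genes that had at least 5 CPM in MEK1ca. This was not particular to them, as the median was 7.60 CPM in pCIG for the 251 genes that the same cut-offs call raised in MEK1ca but with a ratio under 0.67.

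**Figure D1:**
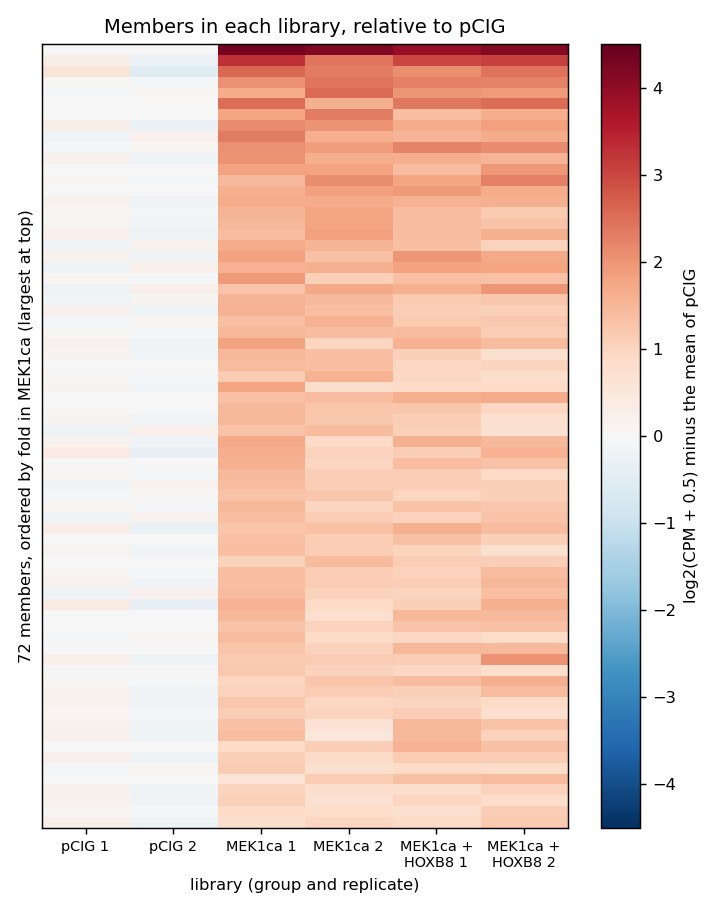
Each row is 1 of the 72 members, ordered by fold in MEK1ca, and each column is 1 of the 6 libraries; the colour is log2(CPM + 0.5) minus the mean of the 2 pCIG libraries. The 4 columns with MEK1ca are red in every row, which the choice of the members fixes, and the topmost member stands apart with an 18.8-fold difference.

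The folds over pCIG were modest for most members. The fold in MEK1ca had a median of 2.54 and a maximum of 18.8, and 46 of the 72 members lay between 2-fold and 3-fold. A further 7 lay under 2-fold, 16 between 3-fold and 5-fold, and 3 above 5-fold. In MEK1ca + HOXB8 the median fold was 2.47 (1.83 to 16.3), and 15, 41, 13 and 3 members fell into the same classes. The ratio of MEK1ca + HOXB8 to MEK1ca had a median of 0.956, and the middle members lay between 0.834 and 1.12. Expressed as the share of the log2 rise that was left with HOXB8, the median was 95.4%, from 63.6% for the member least retained to 150% for the one that went farthest beyond its MEK1ca level.

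Retention at this level was the less frequent outcome among genes raised by MEK1ca. With the same cut-offs on level, fold and separation of the libraries, 384 genes were raised in MEK1ca, of which the 72 members were 18.8%. The ratio of MEK1ca + HOXB8 to MEK1ca was under 0.67 for 251 of the 384 (65.4%) and 1.5 or more for 13 (3.39%). The remaining 48 had a ratio inside the window but were less than 1.8-fold above pCIG once HOXB8 was added. Over all 384 genes the median ratio was 0.555. These classes follow from the cut-offs and were not tested.

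**Figure D2:**
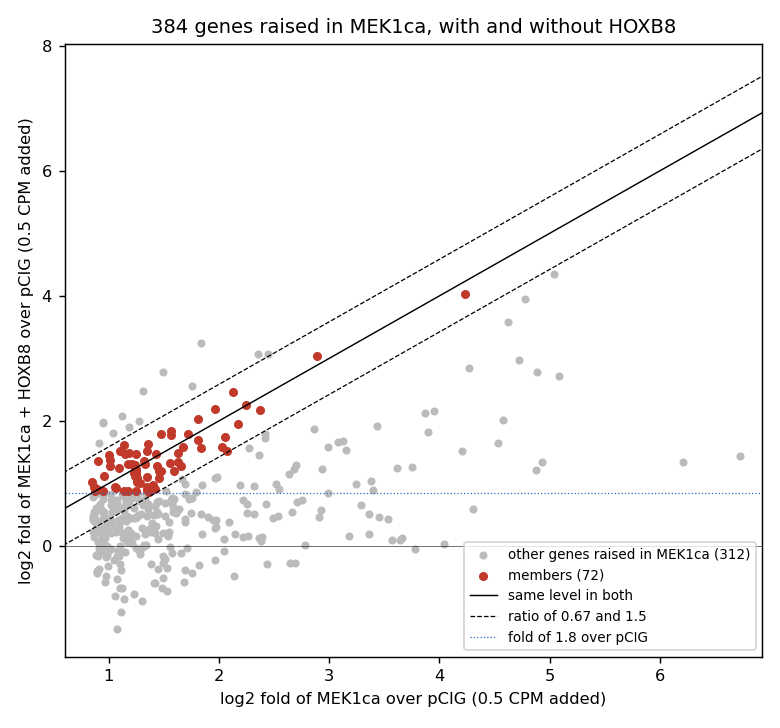
Each point is 1 of the 384 genes raised in MEK1ca, with its log2 fold over pCIG in MEK1ca (x axis) and in MEK1ca + HOXB8 (y axis), both with 0.5 CPM added; red points are the 72 members, grey points the other 312. The members lie in the band between the dashed lines at ratios of 0.67 and 1.5 and above the dotted line at 1.8-fold, while most grey points lie below the band.

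The member with the largest rise, ENSGALG00000026263 on chromosome 8 (5564250 to 5580305, plus strand, 5 exons), was near silent in the control. It was at 1.12 and 1.14 CPM in pCIG, 31.9 and 28.4 CPM in MEK1ca, and 24.4 and 27.8 CPM in MEK1ca + HOXB8. Each of the 4 libraries with MEK1ca was thus far above both controls, and both libraries with HOXB8 lay below both MEK1ca libraries, a ratio of 0.868. Its per-length level was 10.4 ± 0.887 TPM (counts per base of summed exonic length, scaled to a sum of 1000000 in each library; SD, n = 2) in MEK1ca and 8.61 ± 1.02 TPM in MEK1ca + HOXB8, so that it was not among the abundant members even in MEK1ca.

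The second, ENSGALG00000011608 on chromosome 5 (51400763 to 51422756, plus strand, 22 exons), was at 5.08 and 3.38 CPM in pCIG, 45.1 and 24.0 CPM in MEK1ca, and 37.3 and 39.2 CPM in MEK1ca + HOXB8. Its MEK1ca libraries differed from each other by about as much as the lower one differed from the control, and both libraries with HOXB8 fell between them. The third member by fold lay on chromosome 13 (17704810 to 17707611, plus strand, 2 exons), and the spread was in the control, with 35.7 and 16.4 CPM in pCIG. It reached 149 and 124 CPM in MEK1ca and 105 and 134 CPM in MEK1ca + HOXB8, so the libraries with and without HOXB8 overlapped.

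The pattern was tighter for the fourth by fold, a gene with a single exon on chromosome 9 (7713655 to 7715544, minus strand). It was at 3.42 and 3.15 CPM in pCIG, 15.4 and 19.6 CPM in MEK1ca, and 17.8 and 17.4 CPM in MEK1ca + HOXB8, a ratio of 1.01. The sixth, on chromosome 6 (20110079 to 20114607, minus strand), had 24.3 and 24.0 CPM in pCIG, 139.8 and 73.7 CPM in MEK1ca, and 128 and 142 CPM in MEK1ca + HOXB8. Its ratio of 1.26 rested on the lower MEK1ca library, since the higher one was level with the libraries that also carried HOXB8. The tenth, on chromosome 12 (6621762 to 6639866, minus strand), was at 5.78 and 6.61 CPM in pCIG, at 27.2 and 24.1 CPM in MEK1ca, and at 30.9 and 28.9 CPM with HOXB8, above both MEK1ca libraries.

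Not all of the strongly raised members were kept in full. The seventh, on chromosome 14 (4361220 to 4366882, plus strand), had 2.66 and 2.68 CPM in pCIG, 10.3 and 15.3 CPM in MEK1ca, and 7.65 and 9.44 CPM in MEK1ca + HOXB8. Its ratio of 0.679 was the lowest of the group, and both of its libraries with HOXB8 were below both without. The ninth, on chromosome 2 (13816140 to 13922505, plus strand), had a ratio of 0.735, with 67.7 and 41.5 CPM in MEK1ca and 37.8 and 42.1 CPM in MEK1ca + HOXB8. That ratio rested on the first MEK1ca library, since the second lay between the libraries with HOXB8. Over the 20 members with the largest folds in MEK1ca, which spanned 2.97-fold to 18.8-fold, the ratios covered 0.679 to 1.26, from just inside the lower border of the window to well above 1.

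**Figure D3:**
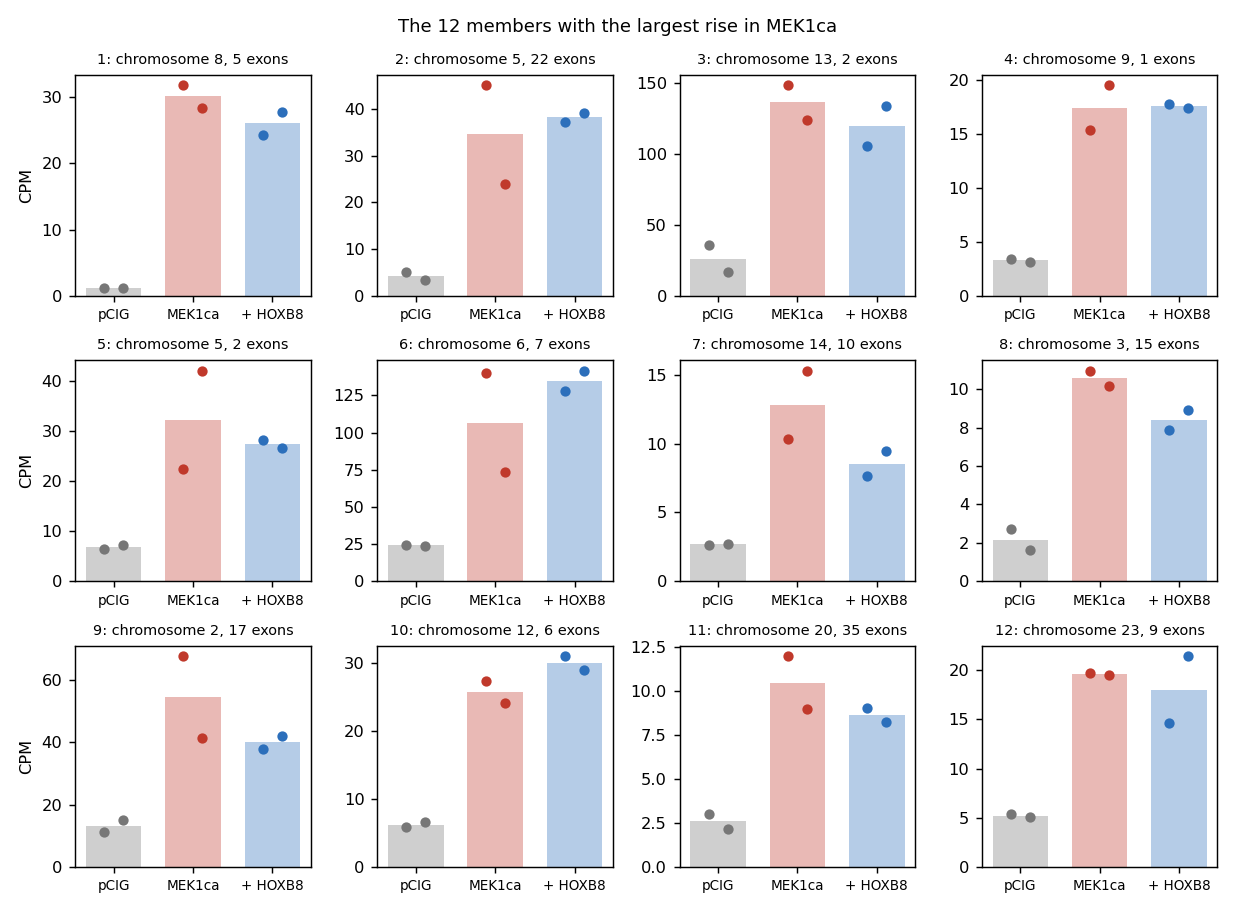
CPM (y axis, linear, from 0) in the 6 libraries for the 12 members with the largest fold in MEK1ca; points are libraries, bars are the means of the 2 libraries of a condition, and the panels are ordered by fold. With 0.5 CPM added to each mean, the folds over pCIG are at least 3.52 in MEK1ca and 2.85 in MEK1ca + HOXB8. The 2 MEK1ca points are far apart in the panels for ranks 2, 5, 6 and 9.

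By level per length in MEK1ca, the most abundant member was a gene of 2 exons on chromosome 27 (3586132 to 3589844, plus strand). Its control level was 169 ± 7.45 TPM, its level in MEK1ca 385 ± 46.6 TPM, and that with HOXB8 457 ± 6.64 TPM (SD, n = 2 each). In CPM, the pCIG libraries were at 96.5 and 92.1, the MEK1ca libraries at 227 and 193, and the MEK1ca + HOXB8 libraries at 264 and 259.7, with those carrying HOXB8 above the others throughout. The next was a gene on chromosome 1 (117759376 to 117761976, minus strand) at 66.2 ± 14.0 TPM in the control, 203 ± 2.21 TPM in MEK1ca and 223 ± 1.60 TPM with HOXB8. Both libraries with HOXB8 were again above both MEK1ca libraries, and the margin was small beside the rise over pCIG.

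At a similar level per length, a pair of abundant members had ratios below 1. The gene on chromosome 1 from 86815012 to 86834017 (minus strand) was at 75.3 ± 2.80, 170 ± 16.1 and 135 ± 6.01 TPM in pCIG, MEK1ca and MEK1ca + HOXB8. The gene on chromosome 18 (10040657 to 10047611, plus strand) was at 62.1 ± 0.581, 152 ± 27.9 and 133 ± 2.54 TPM. The first had both libraries with HOXB8 below both without, whereas in the second the lower MEK1ca library was below both. The ratios of the 2 genes on chromosome 1 were 1.15 and 0.835, on either side of 1 at similar levels in MEK1ca.

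The members spread over much of the ratio window. The ratio was below 0.8 for 12 members, from 0.8 to below 1.2 for 49 and 1.2 or more for 11. Both MEK1ca + HOXB8 libraries were above both MEK1ca libraries for 10 members, against a background of 45.2% of the 13582 genes tested, and below both for 19, against 23.4%. In 43 members the libraries with and without HOXB8 overlapped. The ratio window itself holds these counts down, and nothing is read from their distance to the background.

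In an edgeR fit over all genes with scaling by trimmed mean of M-values (TMM), all 72 members passed the filter on low counts and their median log2 fold change on addition of HOXB8 was -0.17. Scaling by library size alone gave -0.07, and the median of all genes tested moved by a similar amount, from 0.12 to 0.02. In CPM, 41 members were lower with HOXB8 and 31 were not, and under TMM 50 were lower and 22 higher, so the direction of the smallest differences depended on the scaling. The median was also -0.07 without the first MEK1ca library and -0.32 without the second. The 95% interval of a member's change had a median half-width of 0.41 on the log2 scale, from 0.20 to 0.86. It held 0 for 54 members, lay below 0 for 15 and above 0 for 3. For 23 members the whole interval lay inside the ratio window, and for 35 it reached below a ratio of 0.67 and for 16 above 1.5. The window was set on CPM, whereas the intervals use TMM, which moved the median of all genes tested by -0.105 in this contrast. Some estimates lay below the window under TMM, such as -0.69 for ENSGALG00000022490. The members were chosen by the ratio of CPM in the same libraries, so the intervals describe precision and nothing is read from their counts.

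**Figure D4:**
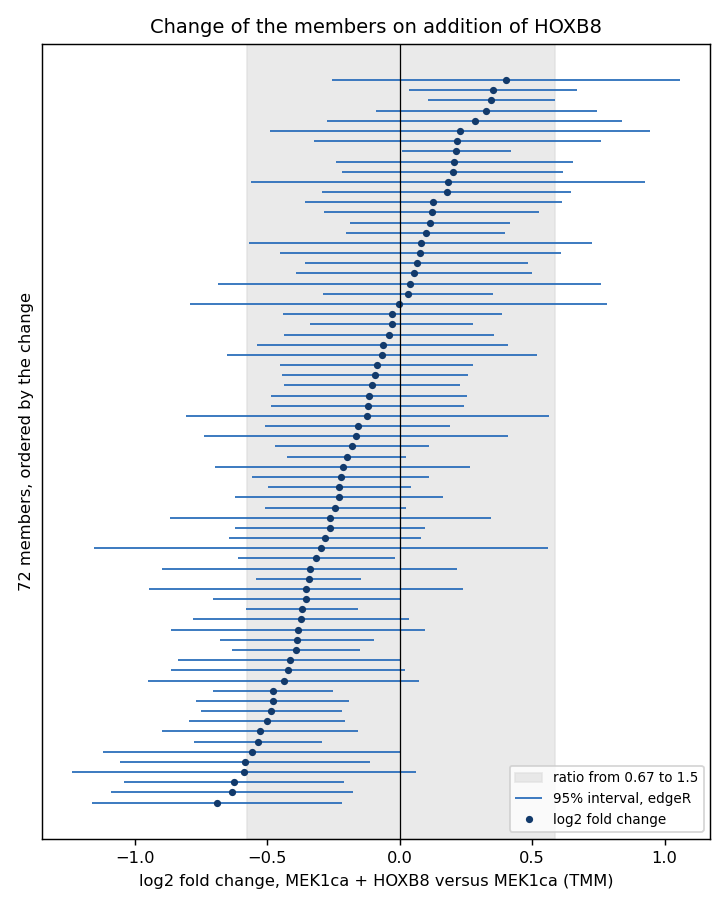
log2 fold change of each of the 72 members in MEK1ca + HOXB8 versus MEK1ca (x axis, edgeR with TMM scaling), ordered by size; dots are estimates, lines are 95% intervals, and the grey band spans ratios of 0.67 to 1.5. The estimates run from -0.69 to 0.40, and most intervals cross 0. The rule applied the band to ratios of CPM, and some estimates under TMM lie below it.

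The quasi-likelihood test of edgeR, at a threshold of 0.01 on the adjusted p, called 64 members higher in MEK1ca than in pCIG (background 4.26% of the genes tested) and 66 higher in MEK1ca + HOXB8 than in pCIG (background 8.91%). The rule used these contrasts, so nothing is read from either count. The 8 and 6 members left uncalled had log2 fold changes of 0.98 to 2.42 and 0.84 to 1.43. The 8, but not the 6, included the gene on chromosome 13 that ranked 3 by fold, whose pCIG libraries differed 2.18-fold. Fewer members were called in both contrasts without the second pCIG library. The same held for MEK1ca + HOXB8 versus pCIG without the first MEK1ca + HOXB8 library. The number of all genes called also changed when a library was left out, and its share in these fits is not given here. Nothing is read from the drop. Between MEK1ca + HOXB8 and MEK1ca, edgeR called 0 members higher (background 8.74%) and 2 lower (background 7.99%). At an unadjusted p under 0.05, edgeR gave 3 higher (background 22.8%) and 15 lower (20.7%), and DESeq2 called 0 higher (12.2%) and 10 lower (12.6%) at an adjusted p of 0.01. The ratio window restricts this contrast, so nothing is read from these counts. Over all genes, library size alone gave 1542 higher and 646 lower calls here against 1187 and 1085 under TMM, and 1436 and 497 against 1210 and 801 for MEK1ca + HOXB8 versus pCIG.

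Of the 2 called lower, ENSGALG00000011419 on chromosome 4 (48787273 to 48788448, plus strand, 3 exons) was at 16.3 and 17.0 CPM in pCIG, 45.7 and 43.6 CPM in MEK1ca, and 32.5 and 33.9 CPM in MEK1ca + HOXB8. The libraries of each condition lay close together and the conditions did not overlap, and 69.7% of the log2 rise was kept. The other, ENSGALG00000026989 on chromosome 2 (32848679 to 32852132, minus strand, 2 exons), was at 78.2 and 71.1 CPM in pCIG, 215 and 256 CPM in MEK1ca, and 194 and 169.7 CPM in MEK1ca + HOXB8. It lies inside a pair of longer genes on the same strand, and how reads shared between genes were counted is not given in the sources used here, so its counts are uncertain. With scaling by library size alone neither was called. The members called, and their direction, also changed when a library was left out. The ratio window was set on the means of both libraries of a condition, so leaving out a library loosens it. The share over all genes in those fits is not given here, and nothing is read from these changes.

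At the other end, 3 members had intervals wholly above 0. A gene on chromosome 1 (6559300 to 6578617, plus strand) was at 39.5 and 38.1 CPM in pCIG, 72.0 and 84.3 CPM in MEK1ca, and 116 and 97.6 CPM in MEK1ca + HOXB8, a log2 change of 0.35 (0.11 to 0.59) with HOXB8. A gene on chromosome 2 (97121786 to 97131304, minus strand) was at 31.6 and 32.7 CPM, then 49.9 and 71.4 CPM, then 80.1 and 86.4 CPM, a log2 change of 0.35 (0.04 to 0.67). In both, every library with HOXB8 was above every MEK1ca library, so the fold over pCIG was larger with HOXB8 than without. The third was the abundant gene on chromosome 27, at 0.21 (0.01 to 0.42). The highest ratio, 1.39, belonged to a gene on chromosome 11 (17795544 to 17807462, plus strand) at 2.92 and 2.05 CPM in pCIG, 6.21 and 5.97 CPM in MEK1ca, and 5.93 and 11.4 CPM in MEK1ca + HOXB8. Here 1 library carried the difference, since the other was level with MEK1ca.

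The spread between libraries of a condition was uneven over the members. The higher of the 2 libraries exceeded the lower by a median of 1.17-fold in pCIG, 1.2-fold in MEK1ca and 1.14-fold in MEK1ca + HOXB8. It did so by more than 1.5-fold for 7, 16 and 1 members. Of the 16 in MEK1ca, 14 were higher in the first library, and over all members the first MEK1ca library was above the second by a median of 1.14-fold, whereas over the genes with at least 5 CPM in MEK1ca that median was 0.990. The widest gap within MEK1ca was that of a gene with a single exon on chromosome 3 (90436443 to 90438227, minus strand), at 29.0 and 14.4 CPM. This gene was at 8.90 and 7.47 CPM in pCIG, and 15.4 and 15.8 CPM in MEK1ca + HOXB8. Its ratio of 0.723 came from the first MEK1ca library, as the second was just below both libraries with HOXB8. The part that the even counts of the second MEK1ca library have in these gaps was not tested.

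Some members lay close to the borders of the rule. Just inside the border of 1.8-fold in MEK1ca were genes on chromosome 12 (3139192 to 3141511) at 1.8 and on chromosome 4 (71188250 to 71439793) at 1.82, and just outside were genes on chromosomes 4 (360637 to 369568) and 6 (26590486 to 26762220) at 1.79 and 1.78. For the fold in MEK1ca + HOXB8, the nearest inside were a gene on chromosome 12 (17814860 to 18073537) and one on chromosome 6 (19976863 to 20045126), both at 1.83. The nearest outside, on chromosomes 5 (2933 to 21284) and 3 (2976278 to 2984717), were both at 1.79. At the lower border of the ratio, the gene on chromosome 14 at 0.679 was followed outside by a gene on chromosome 1 (35803701 to 35863585) at 0.662. At the upper border there was a gap, from 1.39 for the gene on chromosome 11 to 1.55 for a gene on chromosome 20 (11503875 to 11517756). By level in MEK1ca, the lowest member on chromosome 4 (89237871 to 89241342) had 5.01 CPM, and the nearest gene outside, on chromosome 8 (27238562 to 27268762), 4.86 CPM. Several genes thus lay closer to the borders on the folds than any gene did to the upper border of the ratio.

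The members lay on 22 chromosomes, with 12 each on chromosomes 2 and 4, 6 on chromosome 3 and 5 on chromosome 6. Chromosomes 2, 4, 3 and 6 held 856, 688, 779 and 316 genes with at least 5 CPM in MEK1ca. Chromosome 1 held 1253 such genes and 4 members. The spread over chromosomes was not tested. The members were on both strands, with 37 on the plus strand. Chromosomes 1 to 5 held 37 of them, 133 of the 251 raised genes with a ratio under 0.67 and 45.1% of all genes with at least 5 CPM in MEK1ca. The summed exonic length of a member had a median of 2762.5 bases, against 3086 bases for the 251 genes and 2476 bases for the genes with at least 5 CPM. The span from first to last base was 16324.5 bases at the median, against 31238 and 15958 bases.

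In gene structure, short and long genes were both frequent among the members. They had a median of 7 exons, against 10 in each of the other sets, and 23.6% had 3 exons or fewer, against 19.9% and 10.5%. A span over 100000 bases was found in 18.1% of the members, in 21.1% of the 251 and in 7.80% of the genes with at least 5 CPM. Differences between these sets were not tested. An exon here is a stretch listed for the gene in the deposited table, and the stretches were counted as listed, without merging.

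Overlap with another annotated gene was found for 9 members (12.5%), against 14.9% of the genes with at least 5 CPM. In 6 of the 9 the overlapping genes had at most 0.110 CPM in any condition, too little to matter. The exceptions were the gene called lower on chromosome 2, another on chromosome 2 (33143657 to 33145559), inside a gene on the same strand at 1.90 to 6.84 CPM, and the gene on chromosome 12 from 3139192 to 3141511. The last overlaps by its end a gene on the opposite strand at 98.8, 78.4 and 102 CPM in pCIG, MEK1ca and MEK1ca + HOXB8, against its own 2.91, 5.65 and 6.42 CPM. Whether reads were counted by strand is not given in the sources used here, so the values of these 3 members are uncertain.

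Of all pairs of nearest members, 5 lay within 1000000 bases of each other. Only 1 pair was adjacent, with no annotated gene between. These were the genes on chromosome 6 from 19976863 to 20045126, a gene of 56 exons on the plus strand, and from 20110079 to 20114607 on the minus strand, 64953 bases apart. The first was at 8.70 and 9.42 CPM in pCIG, 25.4 and 16.7 CPM in MEK1ca, and 17.5 and 16.5 CPM in MEK1ca + HOXB8, a ratio of 0.811 against 1.26 for the second. The first MEK1ca library was the higher one for both genes, and in both the libraries with and without HOXB8 overlapped.

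The rule did not use the genes that flank the members. Of those that were not members themselves, 97 had a mean of at least 1 CPM over the 3 conditions. A gene under 1 CPM in pCIG could thus enter through its level with MEK1ca. The shares of genes higher in MEK1ca therefore rest in part on genes admitted by that rise. Of the 97, 19 (19.6%) were called higher in MEK1ca than in pCIG by edgeR at an adjusted p of 0.01, against 4.26% of all genes tested. Of the same 97, 0 were called lower, against 1.9%. At an unadjusted p under 0.05 the counts were 39 higher (background 13.8%) and 5 lower (12.4%), and DESeq2 at 0.01 called 26 higher (6.83%) and 2 lower (4.56%). The count of 19 fell without the second MEK1ca library, and fell much further without either pCIG library. Fewer of all genes were also called when a library was left out, and the share over all genes in those fits is not given here. By any amount, 74 of the 97 (76.3%) were higher in MEK1ca, against 48.7% of all genes tested, and their median log2 fold change was 0.21 against -0.01. Neighbouring genes are not independent of each other, and no test of this share was made. The 13582 genes tested also include genes with a mean under 1 CPM, since only 11333 genes reached that level. The flanking genes and these backgrounds are thus not matched for level, and the size of the difference is not read from them.

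By fold, 17 of the 97 flanking genes (17.5%) were at least 1.8-fold higher in MEK1ca. The count was 24 of 329 (7.29%) for genes flanking the 251 genes with a ratio under 0.67. It was 485 of 11333 (4.28%) for all genes with a mean of at least 1 CPM. The 97 leave out members only, so some of them are genes of the 251. Whether the 329 leave out genes of the 251 is not given here. The shares of the 97 and the 329 may thus differ through what was left out, and they are not compared. Most of the 17 were transcribed from the same strand as the member, namely 15 of the 60 on the same strand (25.0%) against 2 of the 37 on the opposite strand (5.41%). By edgeR's call the split was smaller, with 15 of the 60 (25.0%) against 4 of the 37 (10.8%). Of the 15 at 1.8-fold or more, 8 lay downstream of the member and 7 upstream. For genes flanking the 251, with the same limit, the shares were 8.59% on the same strand and 6.47% on the opposite strand. Distance did not order them, as 6 of the 44 within 10000 bases and 11 of the 53 farther away reached 1.8-fold.

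**Figure D5:**
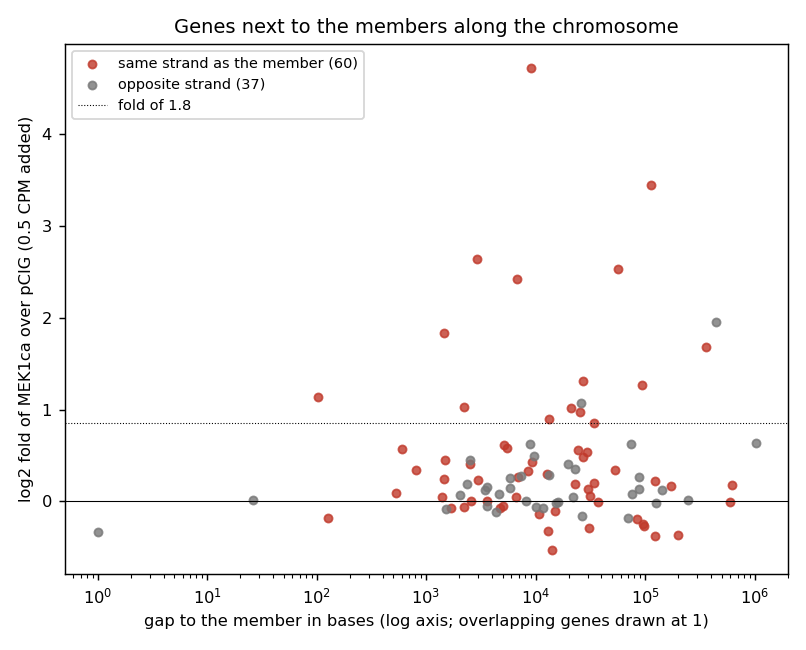
log2 fold in MEK1ca over pCIG (y axis, 0.5 CPM added) of the 97 genes flanking the members, against the gap to the member in bases (x axis, log scale); red points are on the same strand as the member (60), grey points on the opposite strand (37). Of the 17 points at or above the dotted line at 1.8-fold, 15 are red, and they are found at gaps from 104 to 440903 bases.

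The flanking genes that were raised in MEK1ca varied in what remained of their level with HOXB8. Among the 17, the ratio of MEK1ca + HOXB8 to MEK1ca was under 0.67 for 10, inside the window for 5 and 1.5 or more for 2, with a median of 0.613 (0.126 to 2.65). Over the 384 genes raised in MEK1ca, 65.4% had a ratio under 0.67. Those genes also had to pass the cut-offs on level and separation of the libraries, which not all of the 17 did. The shares are therefore not compared. The backgrounds over all genes that follow again include genes with a mean under 1 CPM, unlike the 97. In edgeR's test of MEK1ca + HOXB8 versus MEK1ca, 17 of the 97 flanking genes (17.5%) were called lower, against 7.99% of all genes, and 5 (5.15%) were called higher, against 8.74%. The 17 became 11 under scaling by library size alone, and fell without the first MEK1ca library or without either MEK1ca + HOXB8 library. Fewer of all genes were also called in each of these settings, and the shares over all genes are not given here. Without the second MEK1ca library, 15 were called lower and 6 higher. Against pCIG, 15 (15.5%) were called higher in MEK1ca + HOXB8, with a background of 8.91%, and 17 without the second MEK1ca library.

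The flanking genes with the most marked change, chosen after the values were seen, were on chromosome 6 around the member from 31539142 to 31551526 (minus strand). That member was at 81.8 and 73.5 CPM in pCIG, 213 and 167 CPM in MEK1ca, and 169 and 143 CPM in MEK1ca + HOXB8, so 78.2% of its log2 rise was kept. The flanking gene on 1 side (31382330 to 31425438) was at 37.8 and 35.2 CPM, 488 and 322 CPM, and 53.9 and 47.3 CPM. The gene on the other side (31560638 to 31561609), a short model 9112 bases away, was at 2.48 and 2.06 CPM, 87.5 and 58.0 CPM, and 19.7 and 22.7 CPM. All 3 lie on the minus strand and all were higher in MEK1ca. Both flanking genes lost most of the MEK1ca level with HOXB8, with log2 fold changes of -3.11 (edgeR, adjusted p = 7.3e-05) and -1.89 (adjusted p = 0.00015). The change of the member itself is limited by the rule and is not set against them.

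A higher mean with HOXB8 was found beside the member on chromosome 6 from 20110079 to 20114607. The gene 1445 bases from it on the same strand (20116052 to 20123525) was at 3.60 and 3.47 CPM in pCIG, 19.0 and 8.78 CPM in MEK1ca, and 39.4 and 35.9 CPM in MEK1ca + HOXB8, a ratio of 2.65. Its first MEK1ca library was the higher one, as for the member, and both libraries with HOXB8 were above both without, but edgeR did not call this difference (log2 fold change 1.33, adjusted p = 0.018). Beside the member with the largest rise, on chromosome 8, the gene 2918 bases away (5583223 to 5589430, same strand) was at 0 and 0.126 CPM in pCIG, 2.61 and 3.44 CPM in MEK1ca, and 4.27 and 4.81 CPM in MEK1ca + HOXB8. It was near silent in the control, as that member was, and higher in every library with MEK1ca. Its log2 fold change in MEK1ca was 5.55 (edgeR, adjusted p = 0.00045), which depends on the prior count because 1 control library was at 0. It met the limit of 1 CPM for flanking genes only through the libraries with MEK1ca. Nothing is therefore read from its rise or from this p.

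The composition of the group depended in part on single libraries and on the scaling. Leaving out each library in turn, the rule gave 68 to 98 genes, of which 56 to 69 were members. Without the first MEK1ca library 16 members dropped out and 16 other genes came in, and without the second pCIG library 13 dropped out. With TMM factors in place of the total the rule gave 63 genes, 60 of them members, and with the size factors of DESeq2 60 genes, 57 of them members. Under all of the leave-one-out settings and both scalings, 41 members were kept, among them those ranked 1, 3 and 4 by fold. With TPM in place of CPM the rule gave 71 genes, 56 of them members, and this setting did not enter the count of 41.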

How the data were processed

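RNA-Seq counts per gene from 6 libraries, 2 for each of pCIG, MEK1ca and MEK1ca + HOXB8, were analysed. Per the submitters' processing notes, the authors used Subread and featureCounts with galGal4 and an Ensembl annotation, and DESeq2 for their comparisons; versions and counting options are not given in the sources used here. The deposited counts are whole numbers and not normalized. Total counts ranged from 63637195 to 90460770 per library. The authors' own tables of fold changes and p-values were not used.

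Members and lists were chosen with earlier results of these data known. CPM was taken over column sums, and TPM from the exonic lengths in the deposited table. All contrasts were fitted at once over the 6 libraries with edgeR 4.0.16 (R 4.3.3; filterByExpr, 13582 genes, TMM scaling with factors of 0.964 to 1.05, quasi-likelihood test, Benjamini-Hochberg adjustment, threshold 0.01), and the procedure was tested on simulated data. The common biological coefficient of variation was 0.126. With 2 libraries against 2, an exact two-sided permutation test cannot give a p below 0.333, so none was run on single values. Alternatives were DESeq2 1.42.0, other scalings, no filter, a replicate block, other cut-offs and leaving out each library.

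The genes named by the rule fixed for this work were to be those in gene lists, the 20 largest folds, the 15 highest TPM, the genes nearest each border and those that the study names. Since 0 of the Ensembl identifiers matched the 25635 genes of the reference table, the lists, cell type markers, promoter motifs and genes known only by symbol were not analysed here, and genes were taken by position from the other parts of the rule, with further ones chosen after their values were seen. The p-values rest on the spread between libraries, each from a pool of embryos, as estimated over all 6 libraries together.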

Additional observations from a re-analysis of the deposited data

How the results depend on the processing

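Leaving out 1 library at a time, the genes called ranged from 329 to 812 for MEK1ca versus pCIG (836 with all libraries), from 674 to 2051 for MEK1ca + HOXB8 versus pCIG (2011) and from 1067 to 1945 for MEK1ca + HOXB8 versus MEK1ca (2272). The lone library was assumed to vary like the other groups. An adjusted p of 0.05 gave 1742, 3984 and 4368 calls, and the DESeq2 Wald test gave 1547 and 3062 for the contrasts with pCIG. The number of genes by the rule ranged from 68 to 98 when a library was left out, and was 143 with folds of at least 1.5 over pCIG. The other scalings, the absence of a filter and the other cut-offs of the rule stayed within 1.5 times of these counts. Why the counts moved was not tested. No direction was reversed for the median change of the members in the 3 contrasts. For the contrasts with pCIG the choice of the members fixes this direction, so nothing is read from it there. For MEK1ca + HOXB8 versus MEK1ca the ratio window was set on the same libraries, so nothing is read from the direction there either. Without the second MEK1ca library, the one with even counts, the rule gave 88 genes. The alternatives for the gene lists were not run.

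Replicate numbers are shared between conditions in the labels, and over 11333 genes the deviations of same-numbered libraries went together between pCIG and MEK1ca (correlation 0.249) but not between either and MEK1ca + HOXB8 (-0.210 and -0.088), so the libraries were not treated as pairs. With the number as a replicate block, 921, 1916 and 2170 genes were called in the 3 contrasts, and 4 rather than 2 members were called lower with HOXB8. The ratio window restricts the count of members, so nothing is read from it. With the numbers of MEK1ca + HOXB8 exchanged, an alternative chosen after seeing the data, the block gave 1230, 2771 and 3097 calls.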
